A study of Mus musculus with 28 samples.

Results

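The comparison described here asks how far the liver's transcriptional response to withdrawal of NTBC differed between mice with and without p53. It is a difference of differences: the change from full to no NTBC in Fah-/- p53-/- mice minus the same change in Fah-/- mice, computed for every gene. It uses 16 of the 28 arrays of the series, 4 in each of 4 groups. These are Fah-/- p53-/- mice with no NTBC, Fah-/- p53-/- mice on full NTBC, Fah-/- mice with no NTBC and Fah-/- mice on full NTBC. Full NTBC meant 7.5 mg/L supplied with the water the mice drank. The sources used here give neither the time without NTBC nor the age or sex of the mice. All mice of the series lacked Fah, the controls on full NTBC included, so no wild-type response is included. The labels do not say whether the deletions were made in the whole body or in the liver, nor whether each sample came from a separate mouse, so p-values measure the spread between these samples, which may be in part technical.

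Fah is the final enzyme of tyrosine breakdown, and people without it have hereditary tyrosinemia type I. NTBC (nitisinone) blocks Hpd, an upstream enzyme of that pathway, and so keeps reactive metabolites such as fumarylacetoacetate from forming. When the drug is withdrawn hepatocytes are exposed to these metabolites and to the oxidative and DNA damage they cause. p53 is a transcription factor that is stabilised after DNA damage and induces genes of cell cycle arrest (Cdkn1a, which encodes p21), of apoptosis (Bbc3, which encodes Puma) and of its own restraint (Mdm2).

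RNA from liver was read on single-colour Agilent arrays, 1 sample per array. A level is given throughout as the log2 of the processed signal minus the log2 of the array's 75th percentile, so that 0 is the brightness of the 75th percentile and 1 unit is a doubling. A response is the mean level with no NTBC minus the mean level on full NTBC, and a difference of responses is the response in Fah-/- p53-/- mice minus that in Fah-/- mice, each of these with its standard error (SE) after ±. A gene was called where the limma p-value, adjusted by Benjamini and Hochberg over all features tested, was under 0.05. Adjusted p-values below are of this fit unless another is named.

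Several properties of the arrays moved with the groups. The 75th percentile of signal was 455.6 to 494.5 in Fah-/- p53-/- livers with no NTBC, 251.8 to 296.1 in Fah-/- p53-/- livers on full NTBC, 471.0 to 578.1 in Fah-/- livers with no NTBC and 270.8 to 350.8 in Fah-/- livers on full NTBC. Between 54.9 and 66.7% of probes were well above background on these 16 arrays. Xist, the RNA that coats the inactive X chromosome of females, was detected well above background in all 4 Fah-/- p53-/- samples with no NTBC, at 3.07 to 3.69, and in none of the other 12 samples compared. The Y-linked gene Ddx3y was not well above background on those same 4 arrays and lay at 1.17 to 2.04 on the other 12. By these genes the Fah-/- p53-/- mice with no NTBC were female and the other 3 groups male, so that the part of sex and the part of genotype in the difference of responses cannot be told apart within these 16 arrays. The remaining female arrays of the series were 2 of the 4 of p21-null mice with no NTBC, and a term for sex in the model rests on those 4 arrays alone. The 2 female arrays of these 4 shared a slide, and the 2 male arrays shared a different slide. A term for sex without a term for slide therefore cannot tell sex from slide. On full NTBC each genotype lay on a slide of its own, so genotype and slide cannot be told apart at that dose. With no NTBC 1 slide held 2 arrays of each genotype. Replicate 1 of Fah-/- p53-/- mice with no NTBC lay farthest from its group, with a standard deviation of 0.793 from the mean of the other 3 arrays over all features. Hepatocyte genes were bright on every array: Alb (albumin) was at 8.60 to 8.70 in Fah-/- p53-/- livers with no NTBC, against 10.45 to 10.68 on full NTBC, and at 8.55 to 8.80 in Fah-/- livers with no NTBC, against 10.23 to 10.58 on full NTBC.

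The deleted genes were examined first. Fah lay at -3.36, -2.93, -2.87 and -3.09 in Fah-/- p53-/- livers with no NTBC and at -1.20, -0.81, -0.02 and -0.37 in Fah-/- p53-/- livers on full NTBC. In Fah-/- livers it lay at -2.72, -1.97, -1.95 and -1.82 with no NTBC and at -0.31, -0.32, -0.15 and -0.03 on full NTBC. Its probe was thus well above background in all groups and lower with no NTBC in both genotypes, and the responses did not differ beyond the test (difference -0.55 ± 0.30 (SE), adjusted p 0.264). Of 2 Trp53 probes, the dimmer was lower in Fah-/- p53-/- mice by 2.15 ± 0.17 (log2, SE) with no NTBC and by 1.39 ± 0.17 on full NTBC, with p-values adjusted over all probes of 2.54e-08 and 3.44e-06. The brighter probe differed by -0.27 with no NTBC (adjusted p 0.211) and by -0.20 on full NTBC (0.374). The sources used here do not say whether the Trp53 and Fah probes lie in the deleted parts of these genes.

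The response to NTBC withdrawal was broad in both genotypes and largely shared. Of 20592 features tested, 14363 changed in Fah-/- p53-/- mice (69.8%), of which 6096 rose (29.6% of those tested) and 8267 fell (40.1%), and 14569 changed in Fah-/- mice (70.8%), of which 6025 rose (29.3%) and 8544 fell (41.5%). Called in both genotypes and in the same direction were 11833. The share of rises among the called responses depended on the scaling: it was 42.4% in Fah-/- p53-/- mice and 41.4% in Fah-/- mice as scaled here, 50.5% and 50.2% after quantile normalization, 51.6% and 50.1% in the deposited values and 27.1% and 28.2% after normexp background correction. The median response of all features was -0.14 in Fah-/- p53-/- mice and -0.17 in Fah-/- mice, but -0.49 and -0.39 after normexp, so rises and falls are relative to the 75th percentile. The responses themselves differed for 1873 features, or 9.1% of those tested: 1001 had a more positive response in Fah-/- p53-/- mice (4.86%) and 872 a more negative one (4.23%). For 1819 of the 1873 the 4 arrays of one genotype lay wholly on one side of the 4 of the other, after the mean on full NTBC of each genotype was subtracted. Such separation was seen for 26.3% of all features tested. At an unadjusted p under 0.05 there were 4961 features. The median size of a called difference was 1.07 log2 units, against 0.30 over all features. Calls, separation and sizes come from the same values, so these shares and sizes are no support for the calls.

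The called differences took several forms. In 784 of the 1873 both genotypes responded in the same direction, and the responses differed in size: 349 of these rose and 435 fell in both. In 182 the responses were opposed, 90 rising in Fah-/- p53-/- mice and falling in Fah-/- mice and 92 the reverse. In 428 the response was called in Fah-/- p53-/- mice alone and in 479 in Fah-/- mice alone. Seen by dose, the genotypes differed with no NTBC alone for 728 of the 1873 features, on full NTBC alone for 778, at both doses for 161 and, as tested, at neither for 206. A gene whose levels differed only before withdrawal therefore counts here beside one whose levels differed only after it. With a term for sex 476 of the 1873 were called (1868 kept their sign), and with normexp background correction 570 (1780 kept their sign). Leaving out each of the 16 arrays in turn gave 1437 to 2317 called features, the highest count without replicate 1 of Fah-/- p53-/- mice with no NTBC.

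**Figure D1:**
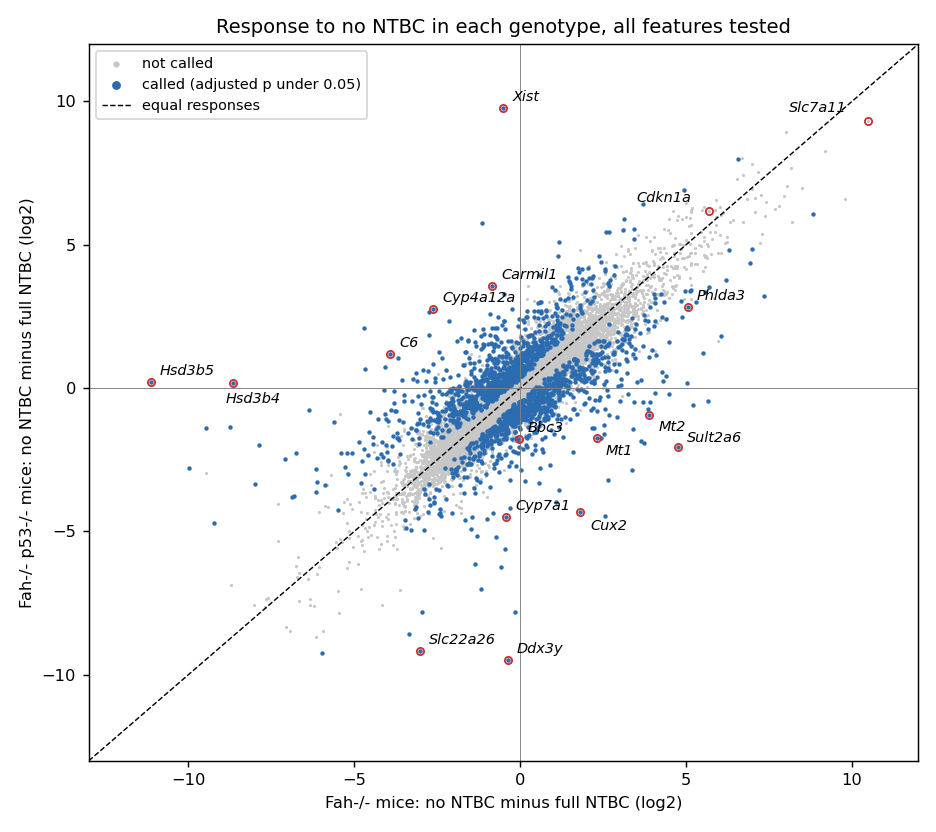
Response to no NTBC in Fah-/- p53-/- mice (vertical axis, log2) against that in Fah-/- mice (horizontal axis, log2), 1 point per feature of 20592 tested, blue where the responses differed (1873). Most points lie along the dashed line of equal responses, Cdkn1a and Slc7a11 among them, while Hsd3b5, Xist, Ddx3y and Hsd3b4 are among those farthest from it.

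The promoter sequences of 3 genes on which the results for p53 targets and metallothioneins turn are given here, since Cdkn1a is the best known p53 target, and Mt1 and Mt2 responded in opposite directions in the genotypes. They are the 250 bases before the annotated start from RefSeq (build GRCm38.p6), plus strand, with matches in capitals. For Cdkn1a, at chr17:29090729-29090978, the capitals mark CATG, any 6 bases and CATG again, the core letters of a pair of p53 half-sites with no spacer. Each metallothionein promoter is marked where it holds TGCACNC or TGCGCNC, the core of the metal response element, on either strand and without overlap. Mt1 is at chr8:94178839-94179088 and Mt2 at chr8:94172368-94172617.
Cdkn1a: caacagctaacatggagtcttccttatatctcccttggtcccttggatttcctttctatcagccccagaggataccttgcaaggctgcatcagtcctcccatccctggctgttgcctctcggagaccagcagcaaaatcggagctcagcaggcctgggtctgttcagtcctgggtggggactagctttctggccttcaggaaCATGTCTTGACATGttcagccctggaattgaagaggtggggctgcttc
Mt1: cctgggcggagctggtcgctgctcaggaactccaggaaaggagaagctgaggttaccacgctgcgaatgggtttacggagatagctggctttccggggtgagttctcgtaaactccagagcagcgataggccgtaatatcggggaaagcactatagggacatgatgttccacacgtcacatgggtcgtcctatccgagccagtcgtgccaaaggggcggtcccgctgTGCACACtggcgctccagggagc
Mt2: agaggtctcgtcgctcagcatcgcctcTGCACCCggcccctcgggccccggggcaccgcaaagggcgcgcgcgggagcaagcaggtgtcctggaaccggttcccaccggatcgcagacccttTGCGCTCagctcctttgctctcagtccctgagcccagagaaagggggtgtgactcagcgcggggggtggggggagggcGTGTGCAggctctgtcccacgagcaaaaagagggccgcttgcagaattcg
The Cdkn1a window held 1 match of the p53 letters, which 0.49% of 32851 windows of this length held. A Cdkn1a window was shown only if it held such a match, so this match beside that share is no test. Of 34 listed p53 targets 27 had a window, and Cdkn1a was the single member with a match in one. The Mt1 window held 1 match of the metal letters and 21.4% of windows held at least 1, and the Mt2 window held 3, which 0.77% of windows held or exceeded. A match is a description of the letters in the window, not a binding site.

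Genes known as direct targets of p53 rose after NTBC withdrawal in both genotypes, and a minority rose less, or fell more, in Fah-/- p53-/- mice. Of 34 listed targets 23 rose and 8 fell in Fah-/- p53-/- mice, and 22 rose and 3 fell in Fah-/- mice. The responses differed for 8 of the 34, all more negative in Fah-/- p53-/- mice and none more positive, where 4.23% of all features were called in that direction. The median difference over the list was -0.46, against 0.01 over all features. With no NTBC 16 of the 34 were lower in Fah-/- p53-/- mice and none higher, where 6.57% of all features were lower and 7.6% higher. On full NTBC 7 were lower and 1 higher, where 7.53% were lower and 6.34% higher. The sum of the list's linear levels was 182 to 198 in Fah-/- p53-/- livers with no NTBC, 148 to 165 on full NTBC, 243 to 287 in Fah-/- livers with no NTBC and 157 to 175 on full NTBC, so that the genotypes were apart with no NTBC and overlapped on full NTBC.

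Cdkn1a, the inhibitor of cyclin-dependent kinases that is the usual readout of p53 activity, rose strongly with p53 and without it. In Fah-/- p53-/- livers its levels were 3.77, 3.19, 3.07 and 3.16 with no NTBC, against -2.98, -2.83, -2.43 and -3.34 on full NTBC. The Fah-/- livers had 4.30, 4.17, 4.41 and 4.25 with no NTBC, against -1.12, -1.0, -1.66 and -1.85 on full NTBC. The Fah-/- p53-/- livers lay below the Fah-/- livers at each dose with no overlap. Cdkn1a rose 73.1-fold in Fah-/- p53-/- mice and 51.5-fold in Fah-/- mice. The difference of responses was 0.51 ± 0.60 (log2, SE) with an adjusted p of 0.66, and it was -0.77 after normexp (adjusted p 0.572), so its direction is not settled. On full NTBC the level was lower in Fah-/- p53-/- mice by 1.49 (adjusted p 0.0214), and with no NTBC the difference was -0.98 (adjusted p 0.128).

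Phlda3, a membrane-bound inhibitor of Akt signalling, showed the most negative called difference of the list. Its levels were 1.92, 3.07, 2.60 and 3.13 in Fah-/- p53-/- livers with no NTBC and 0.08, -0.54, 0.08 and -0.21 in Fah-/- p53-/- livers on full NTBC. The Fah-/- livers had 4.61, 4.88, 4.93 and 4.60 with no NTBC and -0.20, -0.08, -0.56 and -0.31 on full NTBC. The genotypes overlapped on full NTBC and were apart with no NTBC. Phlda3 rose 7.11-fold in Fah-/- p53-/- mice and 33.0-fold in Fah-/- mice, a difference of -2.21 ± 0.38 (adjusted p 0.000673). Ccng1, which encodes cyclin G1 and recruits a phosphatase to Mdm2, rose by 1.51 in Fah-/- p53-/- mice and by 2.62 in Fah-/- mice (difference -1.11 ± 0.29, adjusted p 0.0157). Its levels were 1.63, 2.71, 2.47 and 2.86 in Fah-/- p53-/- livers with no NTBC, against 0.84 to 0.96 on full NTBC, and 3.82, 4.02, 4.15 and 3.86 in Fah-/- livers with no NTBC, against 1.18 to 1.62 on full NTBC. Zmat3, an RNA-binding protein and splicing regulator, rose by 1.19 and 2.37 in Fah-/- p53-/- and Fah-/- mice (difference -1.18 ± 0.29, adjusted p 0.0122). Polk, a DNA polymerase that copies past damaged bases, rose by 0.99 in Fah-/- p53-/- mice and by 1.70 in Fah-/- mice (difference -0.71 ± 0.15, adjusted p 0.00365).

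Mdm2, the ubiquitin ligase that degrades p53, was lower without p53 at both doses by its brightest probe. Its levels were 1.51, 1.48, 1.33 and 1.45 in Fah-/- p53-/- livers with no NTBC and -0.13, 0.09, -0.01 and 0.01 on full NTBC, against 2.74, 2.96, 2.45 and 2.58 in Fah-/- livers with no NTBC and 0.59, 0.65, 0.67 and 0.52 on full NTBC. The groups did not overlap at either dose. The genotypes differed by -1.24 with no NTBC (adjusted p 7.65e-07) and by -0.62 on full NTBC (adjusted p 0.00113), so that the rise was smaller by 0.62 ± 0.17 (adjusted p 0.0235). This call was lost without replicate 2 of Fah-/- mice with no NTBC (adjusted p 0.0537) and without replicate 3 of Fah-/- p53-/- mice with no NTBC (0.0518). The other Mdm2 probe gave genotype differences of -1.32 with no NTBC and -0.31 on full NTBC (p adjusted over all probes 3.41e-05 and 0.272), and a difference of responses of -1.02 (0.0129).

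Another 3 called members fell in Fah-/- p53-/- mice. Bbc3, a pro-apoptotic member of the Bcl2 family, lay at 1.60, 1.49, 0.95 and 1.20 in Fah-/- p53-/- livers with no NTBC and at 3.21, 3.38, 2.85 and 2.89 on full NTBC. The Fah-/- livers had 2.07, 2.39, 2.15 and 2.29 with no NTBC and 2.73, 2.50, 2.0 and 1.87 on full NTBC. It was thus the highest of the 4 groups in Fah-/- p53-/- livers on full NTBC and the lowest there with no NTBC, with no overlap of the genotypes at either dose. It fell by 1.77 in Fah-/- p53-/- mice and had a response of -0.05 in Fah-/- mice (difference -1.72 ± 0.24, adjusted p 7.14e-05). Fdxr, a mitochondrial ferredoxin reductase, fell by 0.84 in Fah-/- p53-/- mice and had a response of -0.05 in Fah-/- mice (difference -0.79 ± 0.21, adjusted p 0.0215, but 0.0507 without replicate 3 of Fah-/- p53-/- mice with no NTBC). Ercc5, an endonuclease of nucleotide excision repair, fell by 0.72 in Fah-/- p53-/- mice and had a response of -0.24 in Fah-/- mice (difference -0.49 ± 0.15, adjusted p 0.0484). The Ercc5 call was lost on leaving out any of 14 of the 16 arrays, with adjusted p up to 0.0948.

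**Figure D2:**
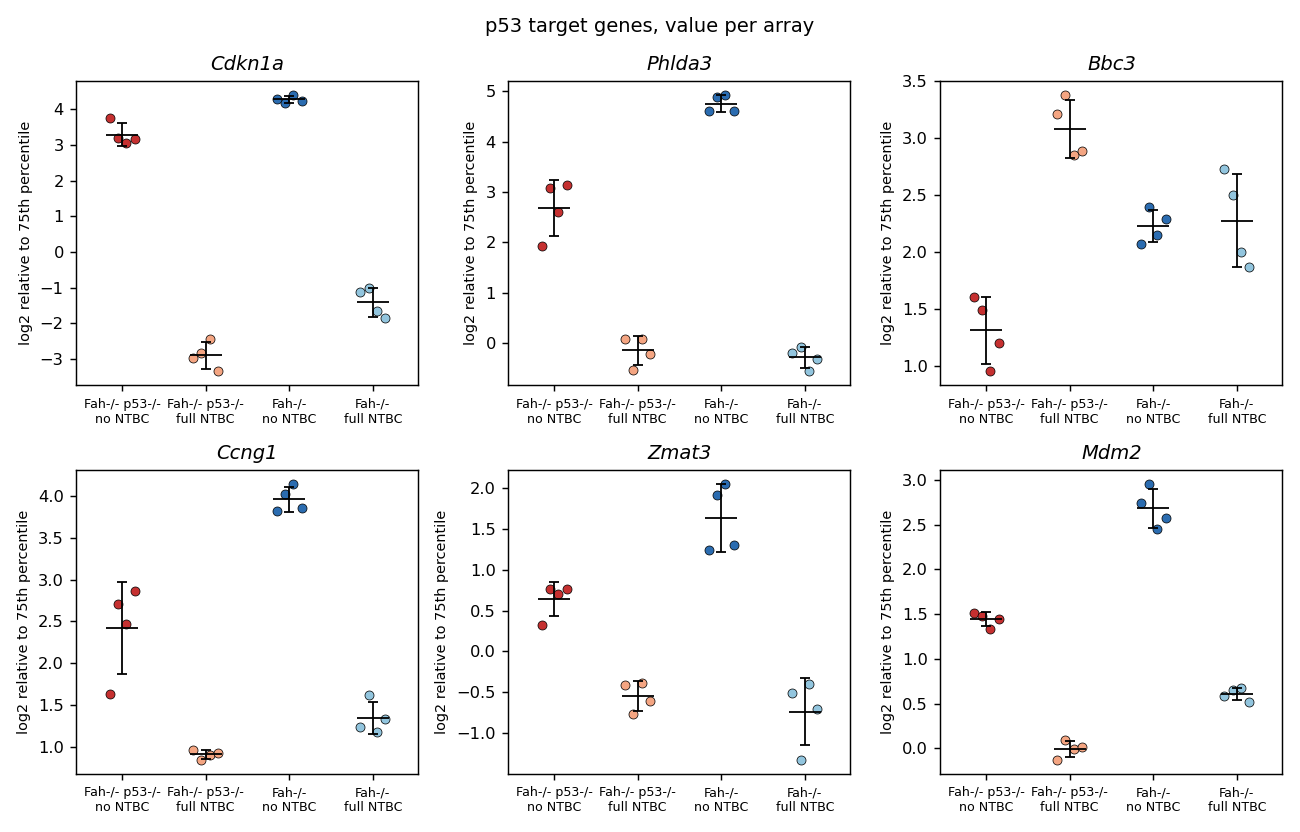
Levels of 6 p53 targets on each array (points; log2 relative to the 75th percentile) in the 4 groups, with the mean and SD of the 4 arrays. Cdkn1a rises in both genotypes, Phlda3, Ccng1, Zmat3 and Mdm2 rise less in Fah-/- p53-/- livers, and Bbc3 falls in Fah-/- p53-/- livers with no NTBC to 0.95 to 1.60.

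Most other p53 targets were not called by their brightest probe. Bax, the pore-forming killer of the Bcl2 family, rose by 1.14 in Fah-/- p53-/- mice and by 1.34 in Fah-/- mice (difference -0.20 ± 0.19, adjusted p 0.568), although it was lower in Fah-/- p53-/- mice at both doses, by 0.85 with no NTBC (adjusted p 0.000222) and by 0.65 on full NTBC (0.00168). Trp53inp1, a stress protein of autophagy, rose by 2.25 and 2.49 in Fah-/- p53-/- and Fah-/- mice (difference -0.24 ± 0.30, adjusted p 0.683), and Fas, a death receptor, by 0.61 and 0.63 (difference -0.02 ± 0.31, adjusted p 0.98). Aen, a nuclease of apoptosis, rose by 0.71 and 1.16 (difference -0.45 ± 0.20, adjusted p 0.162). The death receptor Eda2r was not well above background on any array on full NTBC, and it was at least 15.7-fold higher with no NTBC in Fah-/- p53-/- mice and at least 45.6-fold higher in Fah-/- mice. With no NTBC it lay at -3.84 to -1.64 in Fah-/- p53-/- livers and at -0.19 to 0.52 in Fah-/- livers. Its other 2 probes gave differences of -2.48 and -2.57 that were called (p adjusted over all probes 0.00285 and 0.00205), against -1.44 for the brightest (0.136). For Psrc1 the brightest probe gave -2.16 ± 0.81 (adjusted p 0.0974), while the other 2 gave -2.95 and -2.48 and were called (p adjusted over all probes 0.00281 and 0.000637). Plk2 had a difference of -1.0 ± 0.36 (adjusted p 0.0791). Gdf15, a stress hormone that p53 can induce, had a difference of the other sign, 1.02 ± 0.44 (adjusted p 0.149).

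With a term for sex 3 of the 34 p53 targets were called, Phlda3, Bbc3 and Ercc5, and with normexp 10 were, all more negative in Fah-/- p53-/- mice. On the slide that held 2 arrays of each genotype with no NTBC, 5 were called. The difference was -2.02 for Phlda3 (adjusted p 0.0132), -1.96 for Bbc3 (0.000672), -1.03 for Zmat3 (0.0899) and -0.82 for Ccng1 (0.097). The count was 5 without replicate 3 of Fah-/- p53-/- mice with no NTBC and 6 to 9 without any other array. A single member was called more positive without replicate 1 of Fah-/- mice on full NTBC or without replicate 2 of Fah-/- p53-/- mice on full NTBC.

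Among listed genes of DNA repair and checkpoint signalling all called differences were more positive in Fah-/- p53-/- mice, unlike those of Polk and Ercc5, repair genes on the p53 target list. Of 26 measured members 7 had a more positive response in Fah-/- p53-/- mice and none a more negative one, where 4.86% of all features were called in the first direction. The median difference was 0.28. Atm, the kinase that senses double-strand breaks and activates p53, lay at -1.25, -1.64, -1.70 and -1.72 in Fah-/- p53-/- livers with no NTBC and at -1.86, -1.86, -1.80 and -1.67 on full NTBC. The Fah-/- livers had -3.09, -2.93, -2.80 and -3.01 with no NTBC and -1.31, -1.65, -1.80 and -1.77 on full NTBC. The Fah-/- livers with no NTBC were thus the single group that stood apart. Atm had a response of 0.22 in Fah-/- p53-/- mice and fell by 1.33 in Fah-/- mice (difference 1.55 ± 0.23, adjusted p 0.000178). Its other probe gave a difference of 0.57 that was not called (p adjusted over all probes 0.101).

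Blm, a helicase of homologous recombination, had opposed responses, and again the Fah-/- livers with no NTBC were lowest. Its levels were -0.12, 0.19, 0.06 and 0.07 in Fah-/- p53-/- livers with no NTBC, against -0.26, -0.28, -0.14 and -0.46 on full NTBC, and -0.85, -0.92, -0.79 and -0.80 in Fah-/- livers with no NTBC, against 0.25, 0.02, -0.20 and -0.14 on full NTBC. The difference of responses was 1.15 ± 0.20 (adjusted p 0.000948). Apex1, an endonuclease of base excision repair, had a response of 0.14 in Fah-/- p53-/- mice and fell by 0.50 in Fah-/- mice (difference 0.64 ± 0.12, adjusted p 0.00179). Nbn, a subunit of the complex that tethers broken ends, rose by 0.43 in Fah-/- p53-/- mice and had a response of -0.20 in Fah-/- mice (difference 0.63 ± 0.15, adjusted p 0.00808). Of the 26 members 3 were called with a term for sex and 4 with normexp, and the call of Atm ended in both (adjusted p 0.0619 and 0.0863). Without replicate 3 of Fah-/- p53-/- mice with no NTBC 4 of the 26 were called.

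Most genes of G2 and mitosis rose with no NTBC in both genotypes, and few of their responses differed. Genes of DNA replication were mixed in Fah-/- mice. Of 29 measured S phase genes 21 rose and 3 fell in Fah-/- p53-/- mice, and 13 rose and 4 fell in Fah-/- mice. The responses differed for 4 of the 29 (13.8%), all more positive in Fah-/- p53-/- mice, where 4.86% of all features were. The median difference was 0.54. With no NTBC 10 of the 29 S phase genes were higher in Fah-/- p53-/- mice and none lower, where 7.6% of all features were higher. Their summed linear level was 64.3 to 124 in Fah-/- p53-/- livers with no NTBC, 52.0 to 77.2 on full NTBC, 61.1 to 79.2 in Fah-/- livers with no NTBC and 94.5 to 111 on full NTBC. Of 32 genes of G2 and mitosis 26 rose in Fah-/- p53-/- mice and 23 in Fah-/- mice, and 2 differed, both more positive, a share near the 4.86% of all features. With no NTBC 14 of the 32 were higher in Fah-/- p53-/- mice and none lower, where 7.6% of all features were higher and 6.57% lower. At that dose the Fah-/- p53-/- mice were female and the Fah-/- mice male by Xist and Ddx3y. On full NTBC 2 of the 32 were higher and 1 lower, where 6.34% of all features were higher and 7.53% lower. Summed over the 32 genes, the linear level ranged from 26.6 to 133 in Fah-/- p53-/- livers with no NTBC, from 15.7 to 37.4 on full NTBC, from 22.6 to 42.5 in Fah-/- livers with no NTBC and from 14.6 to 17.2 on full NTBC. Mki67, a marker of cycling cells, lay at -1.37, 2.95, 2.54 and 2.14 in Fah-/- p53-/- livers with no NTBC, where replicate 1 was far below the other 3, and at -1.05 to 1.28 in Fah-/- livers with no NTBC (difference of responses 0.00 ± 0.94, adjusted p 0.999). The mitotic kinase Cdk1 rose in both genotypes, by 3.24 in Fah-/- p53-/- mice and by 2.61 in Fah-/- mice (difference 0.63 ± 1.05, adjusted p 0.764).

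The called cell cycle genes were of different kinds. Ccnf, cyclin F, a substrate receptor of an SCF ubiquitin ligase, rose by 1.51 in Fah-/- p53-/- mice and fell by 1.09 in Fah-/- mice. Its levels were -1.15, -0.14, -0.28 and -0.47 in Fah-/- p53-/- livers with no NTBC and -2.35, -1.54, -1.75 and -2.43 on full NTBC, against -0.84, -0.82, -0.39 and -0.71 in Fah-/- livers with no NTBC and 0.47, 0.44, 0.32 and 0.41 on full NTBC. The genotypes overlapped with no NTBC and were 2.43 apart on full NTBC (adjusted p 1.35e-07), where genotype and slide cannot be told apart; the difference of responses was 2.60 ± 0.33 (adjusted p 2.79e-05). Spc25, a kinetochore protein, rose by 3.12 in Fah-/- p53-/- mice and by 1.21 in Fah-/- mice (difference 1.91 ± 0.41, adjusted p 0.00481; 0.0849 with normexp). Cdt1, which loads the replicative helicase, rose by 2.17 and 0.75 in Fah-/- p53-/- and Fah-/- mice (difference 1.42 ± 0.36, adjusted p 0.0142), while Mcm10, a replication initiation factor, fell by 2.32 and 3.61 (difference 1.29 ± 0.31, adjusted p 0.00926). No S phase gene was called with a term for sex. Leaving out single arrays moved the S phase count between 2 and 8, the 8 without replicate 1 of Fah-/- p53-/- mice with no NTBC and the 2 without replicate 2 or 3 of that group, replicate 1 of Fah-/- p53-/- mice on full NTBC or replicate 3 of Fah-/- mice with no NTBC. Myc, a driver of growth, rose by 3.38 in Fah-/- p53-/- mice and by 2.02 in Fah-/- mice (difference 1.36 ± 0.45, adjusted p 0.0575). Its other 2 probes gave 1.43 and 1.60 and were called (p adjusted over all probes 0.0482 and 0.0144).

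Mt1 and Mt2, whose promoters are shown above and which encode the small zinc-binding metallothioneins, fell in Fah-/- p53-/- mice and rose in Fah-/- mice. Mt1 lay at 5.82, 7.05, 6.83 and 6.66 in Fah-/- p53-/- livers with no NTBC and at 8.58, 7.27, 8.37 and 9.16 on full NTBC. In Fah-/- livers it lay at 5.75, 6.54, 6.75 and 6.22 with no NTBC and at 3.70, 4.13, 3.88 and 4.33 on full NTBC. Mt2 lay at 7.0, 7.92, 7.88 and 7.88 in Fah-/- p53-/- livers with no NTBC and at 9.03, 7.68, 8.56 and 9.18 on full NTBC, against 7.23, 7.87, 7.69 and 7.30 in Fah-/- livers with no NTBC and 3.47, 3.64, 3.49 and 3.95 on full NTBC. With no NTBC the genotypes overlapped for both genes (differences 0.27 and 0.15, adjusted p 0.63 and 0.786), and on full NTBC they were 4.34 and 4.97 apart (adjusted p 1.98e-09 and 2.94e-11), every Fah-/- p53-/- liver above every Fah-/- liver.

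For Mt1 the response was -1.75 in Fah-/- p53-/- mice and 2.31 in Fah-/- mice, a difference of -4.06 ± 0.46 (adjusted p 5.84e-06). For Mt2 it was -0.94 in Fah-/- p53-/- mice and 3.88 in Fah-/- mice, a difference of -4.82 ± 0.41 (adjusted p 9.24e-08). The differences were -4.03 and -4.85 with a term for sex and -3.74 and -4.64 on the shared slide. Both settings act only through the arrays with no NTBC. They cannot check the gap on full NTBC, where genotype and slide cannot be told apart. Of 10 genes of metallothionein and zinc transport 3 were called more negative, Mt1 and Mt2 among them, and 1 more positive. Of all features 4.23% and 4.86% were called in these directions. Slc39a14, a zinc and manganese importer of hepatocytes, fell by 1.51 in Fah-/- p53-/- mice and by 0.38 in Fah-/- mice (difference -1.13 ± 0.18, adjusted p 0.000358), a call that ended with normexp (0.0847). Its other probe gave -0.56 and was not called (p adjusted over all probes 0.366).

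**Figure D3:**
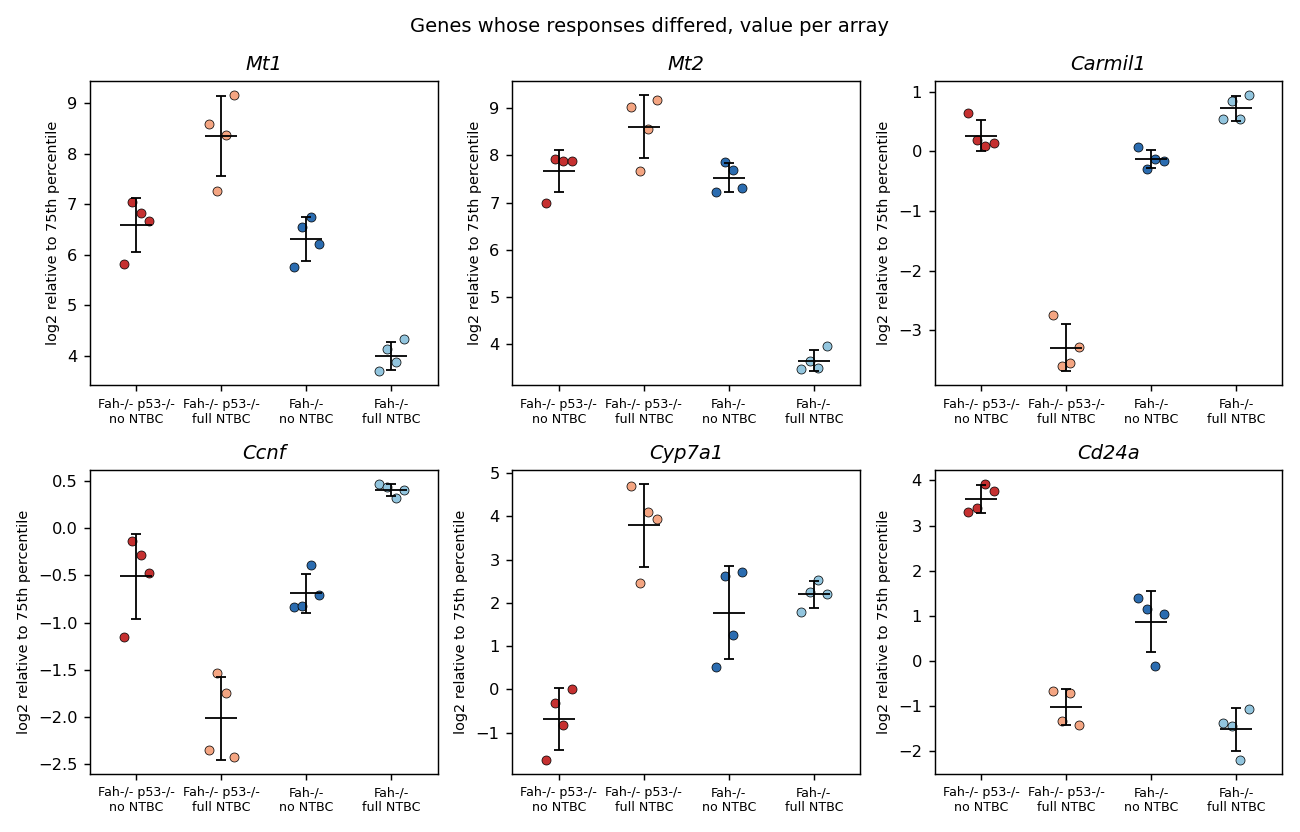
Levels of 6 genes whose responses differed on each array (points; log2 relative to the 75th percentile) in the 4 groups, with the mean and SD of the 4 arrays. For Mt1, Mt2, Carmil1 and Ccnf the genotypes lie apart on full NTBC and close together with no NTBC, while Cyp7a1 and Cd24a are furthest apart with no NTBC.

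Liver genes that differ between the sexes through the pattern of growth hormone release were among those with the largest differences of responses. Of 19 measured male-biased genes 8 had a more positive response in Fah-/- p53-/- mice and none a more negative one, and of 20 female-biased genes 8 had a more negative response and none a more positive one, where 4.86% and 4.23% of all features were called in these directions. The median difference was 0.88 for the male-biased and -1.13 for the female-biased genes. With no NTBC, where the Fah-/- p53-/- mice were female by Xist and Ddx3y, 8 of the 19 male-biased genes were lower and none higher in Fah-/- p53-/- mice, and 5 of the 20 female-biased genes were higher and 1 lower. On full NTBC, where both genotypes were male by the same genes, 15 of the 19 were lower and none higher, and 15 of the 20 were higher and none lower. Of all features 6.57% were lower and 7.6% higher with no NTBC, and 7.53% were lower and 6.34% higher on full NTBC. Genotype and slide cannot be told apart on full NTBC. The linear levels of the male-biased genes summed to 243 to 293 in Fah-/- p53-/- livers with no NTBC, 762 to 2100 in Fah-/- p53-/- livers on full NTBC, 370 to 591 in Fah-/- livers with no NTBC and 3650 to 4490 in Fah-/- livers on full NTBC, which stood out.

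Hsd3b5, a male-specific steroid reductase of mouse liver, had the largest difference of all called genes, 11.35 ± 1.10 (adjusted p 5.42e-07). It lay between -5.90 and -4.29 in Fah-/- p53-/- livers with no NTBC, between -5.40 and -4.30 in Fah-/- p53-/- livers on full NTBC and between -7.87 and -4.03 in Fah-/- livers with no NTBC, against 6.27, 5.76, 5.63 and 5.62 in Fah-/- livers on full NTBC, the single group in which it was bright. Its probe was well above background on 3, 1 and 3 arrays of the first 3 of these groups, so its fall in Fah-/- mice is near the limit of the array. C6, a component of the complement attack complex, was bright in the same group and measured on every array. It lay at -0.17, 0.81, 0.88 and 0.62 in Fah-/- p53-/- livers with no NTBC, against -0.63, -1.04, -0.32 and -0.62 on full NTBC, and at 0.19, 0.20, 0.10 and -0.44 in Fah-/- livers with no NTBC, against 4.16, 3.82, 3.69 and 4.10 on full NTBC. It rose by 1.19 in Fah-/- p53-/- mice and fell by 3.93 in Fah-/- mice (difference 5.11 ± 0.34, adjusted p 9.31e-10).

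Other male-biased genes were likewise highest in Fah-/- livers on full NTBC. Cyp4a12a, a fatty acid hydroxylase, lay at 1.33, 2.24, 3.1 and 3.29 in Fah-/- p53-/- livers with no NTBC, against -0.87, -2.38, 0.51 and 1.71 on full NTBC, and at 3.86, 4.66, 5.13 and 3.80 in Fah-/- livers with no NTBC, against 6.84, 6.99, 7.0 and 7.09 on full NTBC. Its responses were opposed, a rise of 2.75 and a fall of 2.62 (difference 5.37 ± 0.88, adjusted p 0.000444). Elovl3, an enzyme of fatty acid elongation, had a response of -1.41 in Fah-/- p53-/- mice and fell by 9.46 in Fah-/- mice (difference 8.05 ± 1.26, adjusted p 0.000277). Cyp7b1, a hydroxylase of oxysterols, fell by 1.18 in Fah-/- p53-/- mice and by 3.53 in Fah-/- mice (difference 2.35 ± 0.39, adjusted p 0.000509). Members of the Mup family, male-biased urinary proteins whose near-identical copies the probes may not separate, were not called: Mup1 had a difference of -2.21 ± 1.54 (adjusted p 0.405) and Mup3 one of -2.37 ± 1.30 (0.272).

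On full NTBC the gap between genotypes went the other way for most female-biased genes. Their responses were not a mirror image: in both genotypes more of them fell than rose, as for the male-biased genes. Cux2, a transcription factor of female liver, lay at -4.56, -4.34, -4.79 and -4.59 in Fah-/- p53-/- livers with no NTBC, against 0.17, -0.40, -0.79 and -0.04 on full NTBC, and at -5.08, -4.17, -3.30 and -4.74 in Fah-/- livers with no NTBC. It was not well above background on any array of Fah-/- mice on full NTBC, so that on full NTBC it was at least 54.4-fold higher in Fah-/- p53-/- mice (adjusted p 5.87e-09). The genotypes overlapped with no NTBC. Hao2, a peroxisomal hydroxyacid oxidase, lay at 2.71, 2.47, 2.36 and 2.56 in Fah-/- p53-/- livers on full NTBC, and at -1.71 or lower on every array of the other 3 groups (difference -5.14 ± 1.0, adjusted p 0.00218). Cyp17a1, a steroid hydroxylase, fell by 3.86 in Fah-/- p53-/- mice and by 2.23 in Fah-/- mice (difference -1.63 ± 0.34, adjusted p 0.00381). With a term for sex 6 of the 19 male-biased and 4 of the 20 female-biased genes were called, in these same directions, and with normexp 10 and 3. The female-biased count was 5 without replicate 2 of Fah-/- mice with no NTBC and 5 without replicate 1 of Fah-/- mice on full NTBC.

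**Figure D4:**
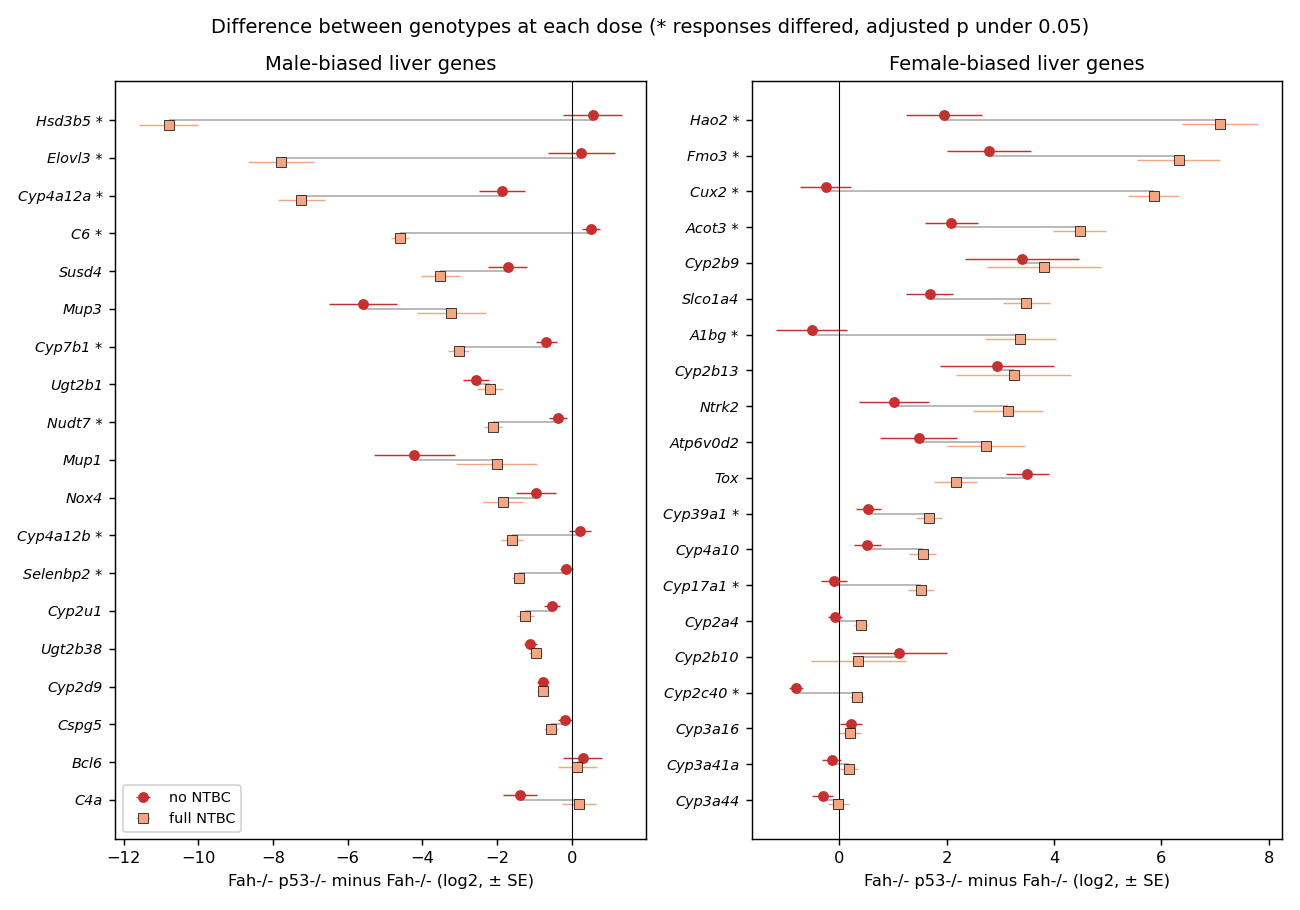
Fah-/- p53-/- minus Fah-/- levels (log2, horizontal axis, with SE) with no NTBC (red circles) and on full NTBC (pale squares) for the measured male-biased (left) and female-biased (right) liver genes, stars marking those whose responses differed. On full NTBC 15 of 19 male-biased genes are lower and 15 of 20 female-biased genes higher in Fah-/- p53-/- mice, and for most starred genes the difference is nearer 0 with no NTBC. Of all features 7.53% are lower and 6.34% higher on full NTBC, where genotype and slide cannot be told apart.

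The Sult2a sulfotransferases, which conjugate bile acids and steroids and are more active in female mice, also had opposed responses. Sult2a6 lay at 3.53, 5.91, 5.78 and 5.19 in Fah-/- p53-/- livers with no NTBC and at 7.81, 7.61, 7.05 and 6.23 on full NTBC, against 0.46, 1.63, 1.87 and 0.12 in Fah-/- livers with no NTBC and -1.86, -3.09, -4.45 and -5.54 on full NTBC. Every Fah-/- p53-/- liver lay above every Fah-/- liver at each dose. It fell by 2.07 in Fah-/- p53-/- mice and rose by 4.75 in Fah-/- mice (difference -6.82 ± 0.98, adjusted p 9.98e-05). The probes of Sult2a3 and Sult2a4 gave differences of -5.87 ± 1.04 and -5.48 ± 0.78 (adjusted p 0.000948 and 9.24e-05), both lost with normexp (0.106 and 0.214). Neither was well above background in Fah-/- mice on full NTBC, and since the family's members are near-identical in sequence the probes may share targets. Slc22a26, a transporter of the organic anion family, was bright in Fah-/- p53-/- livers on full NTBC alone, at 0.85 to 3.14. It was not well above background on any array with no NTBC, and was thus at least 522-fold lower with no NTBC in Fah-/- p53-/- mice and at least 6.71-fold lower in Fah-/- mice.

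Carmil1, a regulator of actin filament capping, had the smallest adjusted p of the genes named here. Its levels were 0.64, 0.20, 0.09 and 0.14 in Fah-/- p53-/- livers with no NTBC and -2.75, -3.61, -3.55 and -3.28 on full NTBC. In Fah-/- livers they were 0.08, -0.30, -0.13 and -0.16 with no NTBC and 0.55, 0.85, 0.55 and 0.95 on full NTBC. The Fah-/- p53-/- livers on full NTBC were the single low group. Carmil1 rose by 3.57 in Fah-/- p53-/- mice and fell by 0.85 in Fah-/- mice (difference 4.42 ± 0.27, adjusted p 2.91e-10; 2.48e-07 with a term for sex and 7.35e-05 with normexp). On the shared slide the difference was 4.25. The genotypes differed by -4.02 on full NTBC and by 0.40 with no NTBC. The term for sex and the shared slide act only through the arrays with no NTBC. They cannot check the gap on full NTBC, where genotype and slide cannot be told apart.

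In bile acid metabolism the called differences went in both directions. Cyp7a1, the rate-limiting enzyme of bile acid synthesis from cholesterol, lay at -1.63, -0.32, -0.83 and 0.01 in Fah-/- p53-/- livers with no NTBC and at 4.71, 2.45, 4.10 and 3.94 on full NTBC, against 0.51, 2.63, 1.26 and 2.71 in Fah-/- livers with no NTBC and 1.80, 2.25, 2.54 and 2.20 on full NTBC. The Fah-/- p53-/- livers with no NTBC lay below all others, and those on full NTBC overlapped the Fah-/- livers with no NTBC. Cyp7a1 fell by 4.49 in Fah-/- p53-/- mice and had a response of -0.42 in Fah-/- mice (difference -4.07 ± 0.77, adjusted p 0.00171; 0.0288 with a term for sex). Of 16 bile acid genes 2 were called more positive and 2 more negative, where 4.86% and 4.23% of all features were called in these directions. The median difference over the 16 was 0.15. Cyp27a1, which starts the alternative route of bile acid synthesis, fell by 1.12 in Fah-/- p53-/- mice and by 2.02 in Fah-/- mice (difference 0.89 ± 0.20, adjusted p 0.00566).

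All 24 genes of cholesterol synthesis and uptake fell in Fah-/- p53-/- mice and 20 of them fell in Fah-/- mice. The median response was -2.73 in Fah-/- p53-/- mice and -1.85 in Fah-/- mice, and 4 of the 24 differed, each more negative in Fah-/- p53-/- mice, where 4.23% of all features were. None of the 24 was called with a term for sex or with normexp, and the count was 2 on leaving out any of 8 of the 16 arrays, 2 in each group.

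The called differences among genes of fatty acid oxidation were mostly in the other direction. Of 25 genes of fatty acid oxidation and its regulation by Ppara 7 had a more positive response in Fah-/- p53-/- mice and 1 a more negative one, where 4.86% and 4.23% of all features were called in these directions, with a median difference of 0.61. With no NTBC 16 of the 25 were higher in Fah-/- p53-/- mice and none lower, where 7.6% of all features were higher. Hadha, a subunit of the mitochondrial trifunctional protein, rose by 0.50 in Fah-/- p53-/- mice and fell by 0.32 in Fah-/- mice (difference 0.82 ± 0.18, adjusted p 0.00676). Creb3l3, a fasting-induced transcription factor, had a response of -0.19 in Fah-/- p53-/- mice and fell by 1.05 in Fah-/- mice (difference 0.86 ± 0.17, adjusted p 0.00262). Acot1, a thioesterase, rose by 2.53 in Fah-/- p53-/- mice and by 1.11 in Fah-/- mice (difference 1.42 ± 0.36, adjusted p 0.0133). Pdk4, the kinase that shuts pyruvate dehydrogenase, and the fasting hormone Fgf21 had differences of 2.13 ± 0.63 (adjusted p 0.035) and 2.75 ± 0.81 (0.0348), each lost on leaving out any of 9 of the 16 arrays, with adjusted p up to 0.0714 for Pdk4 and 0.0764 for Fgf21. None of the 25 was called with a term for sex, and 6 were with normexp.

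G6pc, which releases free glucose from liver, lay at 4.39, 3.81, 4.20 and 3.84 in Fah-/- p53-/- livers with no NTBC and at 5.60, 5.88, 4.33 and 3.59 on full NTBC, against 2.25, 2.99, 2.97 and 3.44 in Fah-/- livers with no NTBC and 6.53, 7.05, 7.05 and 6.14 on full NTBC. Every Fah-/- p53-/- liver with no NTBC lay above every Fah-/- liver with no NTBC, and below on full NTBC. It had a response of -0.79 in Fah-/- p53-/- mice and fell by 3.78 in Fah-/- mice (difference 2.99 ± 0.50, adjusted p 0.000559; 0.0347 with a term for sex). Of 13 measured genes of gluconeogenesis and glycogen, G6pc among them, 2 were called more positive and none more negative. The shares of all features called in these directions were 4.86% and 4.23%. The median difference over the 13 was -0.12. Cidec, a lipid droplet protein, rose 120.0-fold in Fah-/- p53-/- mice and 30.8-fold in Fah-/- mice (difference 1.97 ± 0.36, adjusted p 0.00125).

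Most listed genes of the oxidative stress programme rose in both genotypes. Of 37 targets of Nrf2, the transcription factor that responds to electrophiles, 24 rose in each genotype, and 7 fell in Fah-/- p53-/- mice and 8 in Fah-/- mice. Their summed linear level, in which the brightest genes weigh most, was 3770 to 4420 in Fah-/- p53-/- livers with no NTBC, 4110 to 5370 on full NTBC, 4080 to 5570 in Fah-/- livers with no NTBC and 5610 to 6480 on full NTBC. The sum was thus lower with no NTBC in Fah-/- mice, while the ranges overlapped in Fah-/- p53-/- mice. The responses differed for 3 more positive and 2 more negative members, shares near those of all features. Slc7a11, the cystine importer, was not well above background on full NTBC in either genotype and was at least 586-fold higher with no NTBC in Fah-/- p53-/- mice and at least 1330-fold higher in Fah-/- mice. Cbr3, a carbonyl reductase, rose by 7.43 in Fah-/- p53-/- mice and by 6.72 in Fah-/- mice (difference 0.71 ± 0.46, adjusted p 0.356), and Hmox1, heme oxygenase, by 2.59 and 3.42 (difference -0.83 ± 0.40, adjusted p 0.202). Gclc, of glutathione synthesis, rose by 1.82 and 1.41 (difference 0.41 ± 0.25, adjusted p 0.317).

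Among the called members, Gstp1, a glutathione transferase that is more abundant in male mouse liver, lay at 8.10, 8.56, 8.52 and 8.40 in Fah-/- p53-/- livers with no NTBC and at 7.72, 8.78, 8.27 and 8.03 on full NTBC, against 8.29, 8.51, 8.65 and 8.43 in Fah-/- livers with no NTBC and 10.14, 10.02, 9.77 and 9.99 on full NTBC. The Fah-/- livers on full NTBC were the single high group, and Gstp1 had a response of 0.19 in Fah-/- p53-/- mice and fell by 1.51 in Fah-/- mice (difference 1.70 ± 0.22, adjusted p 3.04e-05). Ggt1, which breaks down extracellular glutathione, was not well above background in Fah-/- mice on full NTBC. It lay at 2.21, 1.57, 1.61 and 1.48 in Fah-/- p53-/- livers with no NTBC and at 2.45, 2.48, 2.96 and 2.42 in Fah-/- livers with no NTBC, and its fitted difference of -2.77 ± 0.54 (adjusted p 0.00226) rests on the dim probe. Nqo1, a quinone reductase, rose by 1.45 in Fah-/- p53-/- mice and by 2.43 in Fah-/- mice (difference -0.98 ± 0.28, adjusted p 0.0315), a call lost on leaving out any of 7 of the 16 arrays, with adjusted p up to 0.0757. Of 24 targets of Atf4, the factor of the integrated stress response, 4 were more positive and 3 more negative, where 4.86% and 4.23% of all features were called in these directions. With a term for sex none was more positive and 1 more negative, the first count was 2 on leaving out any of 5 of the 16 arrays, and the second was 1 on leaving out any of 7. Asns, asparagine synthetase, lay at 4.17 to 4.69 in Fah-/- p53-/- livers with no NTBC and at -1.74 to 1.90 on full NTBC, against 5.37 to 6.06 in Fah-/- livers with no NTBC and 4.18 to 5.01 on full NTBC (difference 3.46 ± 0.94, adjusted p 0.0216; 0.118 with a term for sex).

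Genes of fetal liver and liver tumours rose in both genotypes, 23 of 27 in each. Of all features 29.6% rose in Fah-/- p53-/- mice and 29.3% in Fah-/- mice. Of the 27, 1 had a more positive response in Fah-/- p53-/- mice (3.7%) and 2 a more negative one (7.41%), where 4.86% and 4.23% of all features were called in these directions. Afp, alpha-fetoprotein, lay at 8.20 to 8.34 in Fah-/- p53-/- livers with no NTBC and at 8.22 to 8.37 in Fah-/- livers with no NTBC, and rose by 6.63 and 7.09 (difference -0.45 ± 0.80, adjusted p 0.782). Igf2, the fetal growth factor, rose by 6.60 in Fah-/- p53-/- mice and by 9.80 in Fah-/- mice (difference -3.20 ± 1.13, adjusted p 0.078), and Gpc3, a glypican, by 6.27 and 5.18 (difference 1.09 ± 0.61, adjusted p 0.285). The single member called more positive was Cd24a, a surface protein of progenitor and tumour cells. It lay at 3.29, 3.38, 3.93 and 3.77 in Fah-/- p53-/- livers with no NTBC and at -0.66, -1.32, -0.70 and -1.42 on full NTBC, against 1.39, 1.16, -0.11 and 1.05 in Fah-/- livers with no NTBC and -1.37, -1.43, -2.19 and -1.07 on full NTBC. The genotypes overlapped on full NTBC and were apart with no NTBC. Cd24a rose 24.6-fold in Fah-/- p53-/- mice and 5.22-fold in Fah-/- mice (difference 2.23 ± 0.57, adjusted p 0.0143; 0.000294 with a term for sex and 0.0779 on the shared slide). Scd2, a fatty acid desaturase, and Spink1, a secreted protease inhibitor, were the members called more negative (differences -3.92 ± 0.84 and -4.24 ± 0.95, adjusted p 0.00433 and 0.00621), and neither call held with a term for sex (0.197 and 0.216).

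**Figure D5:**
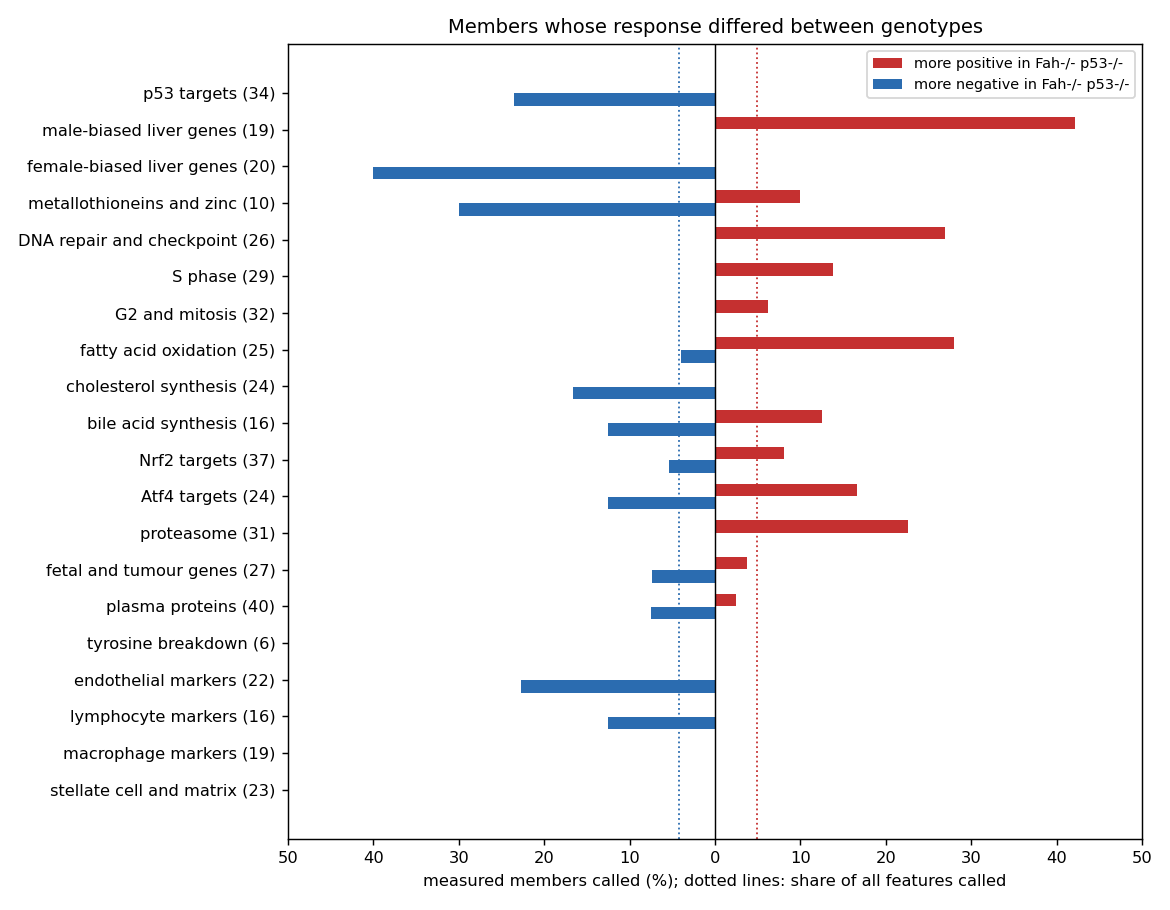
Share of the measured members of 20 gene lists (number measured in brackets) whose response was more positive (right, red) or more negative (left, blue) in Fah-/- p53-/- mice, with dotted lines at the 4.86% and 4.23% of all features. The sex-biased, p53 target, DNA repair, fatty acid oxidation, proteasome and endothelial lists are among those that reach past the lines in one direction, while no gene of tyrosine breakdown, macrophages or stellate cells and matrix was called.

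Genes of hepatocyte functions fell in both genotypes. All 6 genes of tyrosine breakdown fell in both genotypes and none differed. The upstream enzyme Hpd, the target of NTBC, fell by 3.18 in Fah-/- p53-/- mice and by 2.89 in Fah-/- mice (difference -0.29 ± 0.31, adjusted p 0.616), and Tat, tyrosine aminotransferase, by 3.00 and 2.92 (difference -0.08 ± 0.37, adjusted p 0.925). Of 40 plasma protein genes 39 fell in Fah-/- p53-/- mice and all 40 in Fah-/- mice. Alb fell by 1.91 and 1.80 (difference -0.11 ± 0.13, adjusted p 0.655), and 1 of the 40 was called more positive and 3 more negative, the 3 including Hpx, the heme carrier (difference -0.88 ± 0.19, adjusted p 0.005), and Hrg, histidine-rich glycoprotein (-1.15 ± 0.30, adjusted p 0.0155), where 4.86% and 4.23% of all features were. The count of 3 was 8 after quantile normalization, 7 in the deposited values and 0 after normexp. With no NTBC 17 of the 40 were lower in Fah-/- p53-/- mice and none higher, where 6.57% of all features were lower. Of 31 subunits of the proteasome 7 had a more positive response in Fah-/- p53-/- mice and none a more negative one, where 4.86% of all features were called in the first direction, the median difference being 0.25. On full NTBC, where genotype and slide cannot be told apart, 12 of the 31 were lower in Fah-/- p53-/- mice and none higher. The share of all features lower at that dose was 7.53%. With no NTBC none of the 31 differed between the genotypes by the limma test. Psmd14, the deubiquitinase of the lid, rose by 0.85 in Fah-/- p53-/- mice and by 0.30 in Fah-/- mice (difference 0.56 ± 0.13, adjusted p 0.00702). With a term for sex 3 of the 31 were called, and leaving out any of 8 of the 16 arrays, at least 1 in each group, gave 2 to 4.

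Markers of other cells in the liver were examined because fewer cells of a type and less RNA per cell cannot be told apart in whole liver RNA. None of 19 macrophage markers differed by the limma test, and 13 rose in Fah-/- p53-/- mice and 14 in Fah-/- mice. Their summed linear level was 135 to 261 in Fah-/- p53-/- livers with no NTBC, 60.4 to 104 on full NTBC, up to 419 in Fah-/- livers with no NTBC and 60.0 to 97.7 on full NTBC, and every liver with no NTBC lay above every liver on full NTBC. None of 23 genes of stellate cells and matrix was called either. Of 22 endothelial markers 5 were called more negative in Fah-/- p53-/- mice (4.23% of all features) and none more positive, with a median of -0.45 and summed levels of 46.2 to 68.1 in Fah-/- p53-/- livers with no NTBC, 60.4 to 75.4 on full NTBC, 66.8 to 82.9 in Fah-/- livers with no NTBC and 62.6 to 77.2 on full NTBC. Emcn, the sialomucin endomucin, lay at -1.23, -0.86, -0.89 and -0.62 in Fah-/- p53-/- livers with no NTBC and at 0.00, -0.29, 0.56 and 0.47 on full NTBC, against -0.15 to 0.06 in Fah-/- livers with no NTBC and -0.26 to 0.07 on full NTBC. The Fah-/- p53-/- livers with no NTBC were the single low group (difference -1.17 ± 0.22, adjusted p 0.00176). Tie1, an endothelial receptor kinase, fell by 0.40 in Fah-/- p53-/- mice and rose by 0.40 in Fah-/- mice (difference -0.79 ± 0.21, adjusted p 0.0167). None of the 22 was called with a term for sex, and leaving out single arrays gave 2 to 7, with 2 or 3 on leaving out any of 8 of the 16 arrays, 2 in each group. Of 16 lymphocyte markers 2 were called more negative (4.23% of all features), none with a term for sex.

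The groups on a reduced dose give a second view in which all arrays were male by Xist and Ddx3y. The labels of these samples name 25% of the full dose, whereas the treatment text names 2.5% for 3 months. The same difference of responses, taken at the reduced dose, shares its full NTBC arrays with the comparison above, so the values are set side by side only. It was called for 2136 features (10.4%), 1387 of them more positive (6.74%) and 749 more negative (3.64%). For Phlda3 it was -2.38 at the reduced dose (adjusted p 0.00039), beside -2.21 with no NTBC. For Ccng1 it was -1.10 (0.0166), beside -1.11, for Zmat3 -1.12 (0.0172), beside -1.18, and for Bbc3 -0.91 (0.0175), beside -1.72. For Mdm2 it was 0.02 (0.952), beside -0.62, and for Cdkn1a 0.05 (0.974), beside 0.51. Of the 34 p53 targets 7 were called more negative and none more positive.

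Several genes named above were also called at the reduced dose. Mt1 had a difference of -4.76 (adjusted p 1.03e-06) and Mt2 one of -5.44 (1.63e-08), beside -4.06 and -4.82 with no NTBC. For Carmil1 the difference was 2.99 (3.24e-07), beside 4.42, and for C6 3.23 (2.96e-06), beside 5.11. Ccnf had a difference of 2.27 (0.00017) at the reduced dose, beside 2.60 with no NTBC. Values nearer 0 were seen for Sult2a6, at -0.68 (0.711) beside -6.82, for Atm, at 0.25 (0.539) beside 1.55, for Cd24a, at -0.32 (0.769) beside 2.23, and for Cyp7a1, at -1.64 (0.178) beside -4.07. Igf2 had a difference of 6.23 at the reduced dose (adjusted p 0.0013), of the opposite sign to its uncalled -3.20 with no NTBC. Whether the values at the doses differ from each other was not tested.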

How the data were processed

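Liver RNA (0.1 ug, labelled with Cy3) from 28 samples in 7 groups of 4 was hybridised to single-colour Agilent mouse arrays. Intensity values were extracted with Agilent Feature Extraction (10.7.3.1 per the file headers, 10.5 per the submitters' processing notes), on an array designed against build mm9 per the file headers. The main values were the deposited processed signals. The authors' deposited value table holds log2 values of the same arrays, whose normalization those notes and headers do not state. It served as an alternative. Its medians were 6.89 to 6.912, and it correlated at 0.9895 to 0.9994 with the log2 median signal and at 0.917 to 0.9598 with the log2 processed signal of each array.

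The log2 processed signal minus the log2 of each array's 75th percentile was taken without the 1639 control spots. Of 41174 probes 27520 were kept, each detected well above background in every sample of some group. Each gene was represented by its brightest probe, which left 20592 features, 14339 with a symbol. Symbols came from RefSeq (GRCm38.p6) through unversioned accessions, which named 27479 probes and left 13695 unnamed here. A mean per group was fitted over the 28 arrays with limma 3.58.1 in R 4.3.3, with 21 residual degrees of freedom, and p-values were adjusted by Benjamini and Hochberg over all features with a threshold of 0.05. No probe was saturated, and the number of arrays limits the precision. On simulated data with 20592 features for this comparison, 47 of 100 differences of 1 log2 unit and 81 of 100 of 2 units were called, with 5 of 20392 unchanged features. The simulated arrays had independent noise, the same spread in every group and no effect of sex or slide. These counts therefore do not give the share of false calls in the real arrays.

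Where a probe was not well above background on any array of a group, the fold is given as "at least". It sets the brighter group's mean against the mean, over the dim group's arrays, of the higher of the lowest signal well above background and the probe's own signal. The genes named were those of the gene lists with the largest called differences, those with the largest differences of all, those with opposed responses, and a fixed panel. Some genes that this rule names are not reported here. Ercc5 lies outside this rule and was chosen after its values were seen. The members of the comparison and the gene lists were chosen with earlier results of these data known. Alternatives were quantile normalization, normexp with an offset of 50 (on median signals), the deposited values, other filters and probe rules, terms for slide, sex and replicate number, and each array left out. A floor at the background level was added after seeing the data.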

Additional observations from a re-analysis of the deposited data

Results flagged for a closer look

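Among 116 sets of 4 arrays tested for a value far from the other 3 by Dixon's criterion, 8 held such a value, where chance gives about 1 in 20. In Fah-/- p53-/- livers with no NTBC, replicate 1 stood apart for Zmat3 (0.33), Mt2 (7.0), Hsd3b5 (-5.90) and Atm (-1.25). In the same group replicate 3 stood apart for Ddx3y (-7.19, not well above background). In Fah-/- livers with no NTBC, replicate 1 stood apart for Fah (-2.72), replicate 3 for Ggt1 (2.96) and replicate 4 for C6 (-0.44). These are log2 levels relative to the 75th percentile.

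For 16 of the genes named, the responses to NTBC withdrawal were called in both genotypes and opposed, and their difference was called too (limma, adjusted p under 0.05). Genes that rose in Fah-/- p53-/- mice and fell in Fah-/- mice were Cyp4a12a (5.37), C6 (5.11), Carmil1 (4.42), Ccnf (2.60), Cyp4a12b (1.82), Blm (1.15) and Hadha (0.82). Genes that fell in Fah-/- p53-/- mice and rose in Fah-/- mice were Sult2a6 (-6.82), Esm1 (-6.24), Cux2 (-6.10), Sult2a3 (-5.87), Sult2a4 (-5.48), Mt2 (-4.82), Mt1 (-4.06), Cxcl1 (-2.58) and Tie1 (-0.79). Sult2a3, Sult2a4 and Cux2 were not well above background in Fah-/- mice on full NTBC, so the size of their differences is uncertain.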

How the results depend on the processing

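The differences of responses were called for 1873 features, against 629 after normexp, 1105 on the shared slide alone at no NTBC, 610 with a term for sex, 321 with sex and slide, 1030 with a change of at least 2-fold required, and 1437 to 2317 without single arrays. Called responses numbered 14363 in Fah-/- p53-/- mice (21913 with no filter on dim probes, 5498 with sex and slide, 7804 at 2-fold, 13796 to 14427 without single arrays) and 14569 in Fah-/- mice (22818 with no filter, 7894 at 2-fold, 13837 to 14980 without single arrays). Genotypes differed with no NTBC for 2918 (1016 after normexp, 1452 with slide fixed, 791 on the shared slide, 283 with sex, 109 with sex and slide, 942 at 2-fold, 1928 to 3424 without single arrays, the lowest without replicate 3 or replicate 4 of Fah-/- mice with no NTBC) and on full NTBC for 2856 (4613 after normexp, 880 at 2-fold, 2089 to 3483 without single arrays). For the reduced dose 2136 were called (435 after normexp, 1062 at 2-fold, 1688 to 2627 without single arrays). Of 71 named genes called, 40 were called with a term for sex, 26 with sex and slide, 55 after normexp, 51 on the shared slide and 65 without each array in turn, and none was reversed in these settings. The median SE of a difference was 0.259, and 0.36 with a term for sex. The causes of these changes were not tested. With the replicate number as a block 2052 differences of responses were called. The numbers did not pair the samples: the correlations of same-numbered arrays ran from -0.123 to 0.247, 3 of 24 pairs were over 0.1, and 9 were the best of their array. Probes near background and the number of arrays limit what could be called.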

Other observations

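Mast cell genes were looked at after their values were seen, since several were among the largest negative differences. Of 8 measured genes 5 were called more negative in Fah-/- p53-/- mice and none more positive, where 4.23% of all features were called in that direction. The count of 5 was 3 to 5 without single arrays, and 0 with a term for sex. Since the list was made from these same values, its share beside that of all features is no test. Of the 8 genes 5 were not well above background on any array of Fah-/- p53-/- mice with no NTBC. The number was 3 in Fah-/- p53-/- mice on full NTBC, 4 in Fah-/- mice on full NTBC and 0 in Fah-/- mice with no NTBC. Mcpt4, a mast cell protease, was not well above background in either group of Fah-/- p53-/- livers, lay at -2.98, -0.15, -1.72 and -1.34 in Fah-/- livers with no NTBC, and was not well above background in Fah-/- livers on full NTBC. With no NTBC it was at least 29.9-fold lower in Fah-/- p53-/- mice (limma, adjusted p 5.42e-05). Cpa3, the mast cell carboxypeptidase, was at least 28.2-fold lower there (adjusted p 0.000193). The summed linear level of the 8 genes was 1.01 to 1.68 in Fah-/- p53-/- livers with no NTBC, 0.718 to 1.05 on full NTBC, 1.87 to 4.10 in Fah-/- livers with no NTBC and 0.697 to 1.0 on full NTBC.

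Esm1, a proteoglycan secreted by endothelial cells, lay at -0.13, -2.37, -2.34 and -5.06 in Fah-/- p53-/- livers with no NTBC and at -1.30, -1.75, 1.58 and 3.00 on full NTBC, against 1.23, 2.11, 1.54 and 2.47 in Fah-/- livers with no NTBC and -0.87, -3.01, -0.14 and -2.13 on full NTBC (difference -6.24 ± 1.27, limma, adjusted p 0.00302, but 0.143 with a term for sex). The values on full NTBC overlapped and those with no NTBC did not. Erythroid markers summed to 8.32 to 17.6 in Fah-/- p53-/- livers with no NTBC, 184 to 258 on full NTBC, 19.2 to 80.4 in Fah-/- livers with no NTBC and 141 to 158 on full NTBC. Of the 7 measured 1 was called more negative (14.3%), where 4.23% of all features were.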
